A study of Danio rerio with 12 samples.

Results

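The gene *ift57* (Entrez gene 414929, chromosome 2 in RefSeq) is 1 of 8793 genes with a probe set of their own on the Affymetrix Zebrafish Genome array, and 1 of the 15502 probe sets that are not array controls has it as its only gene symbol. The same gene carried that symbol in RefSeq. It was chosen by its signals on these arrays, which had been described as high in males of both tissues, so its levels and differences are given as a description without a test. The signal of 1 male body array went against that description, and the gene is therefore called by its symbol only. A further 8 genes with symbols starting with ift had 1 probe set each and were used as background, out of 17 such symbols in RefSeq.

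Intraflagellar transport is the movement of protein particles along the microtubules of cilia and flagella, and it is needed to build and maintain both. The particles consist of an IFT-B complex, which travels outward with the kinesin-2 motor, and an IFT-A complex, which serves the return with cytoplasmic dynein 2. IFT57 is a subunit of IFT-B, in the peripheral part of that complex together with IFT80, IFT172 and CLUAP1. Zebrafish sperm swim with a flagellum, and ciliated cells also line the kidney tubules, olfactory organ and brain ventricles of the fish. Photoreceptors of the eye rely on the same transport through their connecting cilium.

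RNA was measured in adult fish of the AB (wild type) strain with 1 array per sample and 3 arrays per group. The 4 groups were testis, male body minus testes, ovary, and female body minus ovaries, and all fish were full siblings 4 to 12 months old that had spawned and then been kept apart by sex until dissection on day 7. The body samples are whole carcasses and therefore mixtures of all other tissues, in which fewer cells of a type and less RNA per cell cannot be told apart. The values are GCOS signals, linear intensities in arbitrary units that combine the probe pairs of a probe set and that had been scaled to the same trimmed mean on every array. Signals under 32 were set to 32 before taking log2, and this value is called the floor.

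No array stood apart as a whole. Within testis, male body and ovary the log2 signals of the 3 arrays correlated at 0.955 to 0.983 across probe sets, and within female body at 0.922 to 0.968. The testis germ cell markers (7 genes) had summed signals of 39218 to 44246 on the testis arrays and 6312 to 7785 on the ovary arrays. Their sums were 243.6 to 299.7 in the male bodies, where 2 of the 7 were at the floor throughout, and 1482 to 4700 in the female bodies. For the egg and oocyte markers (9 genes) the sums were 1864 to 2462 on testis arrays and 92012 to 100472 on ovary arrays, with 279 to 629 in the male bodies and 40410 to 81339 in the female bodies. The female body samples therefore held oocyte transcripts, whereas the male body samples held little of the germ cell transcripts of the testis.

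On the testis arrays *ift57* had signals of 2553.4, 2920.3 and 1974.4, against 149.2, 123.9 and 131.3 on the ovary arrays. The groups did not overlap, and the lowest testis signal was 13.2 times the highest ovary signal. Means were 2483 ± 477 in testis and 134.8 ± 13.0 in ovary (SD, n = 3 each), with a log2 difference of 4.19 (SE 0.18). Leaving out any 1 of these arrays gave 4.06 to 4.34.

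On the male body arrays *ift57* had signals of 7500.5, 6687.6 and 37.1, against 149.4, 73.3 and 76.8 on the female body arrays. Male body 1 and 2 lay far above every female array and differed from each other by 1.12-fold. Male body 3 was the lowest of all 12 arrays and close to the floor, below each of the female body arrays, the lowest of which was 1.98 times as high. As the signal of male body 3 was near the floor, folds against it are imprecise. By these signals male body 1 and 2 were 202-fold and 180-fold higher than male body 3. Sex alone did not order the body samples for *ift57*, since 2 males were high and 1 was low.

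**Figure D1:**
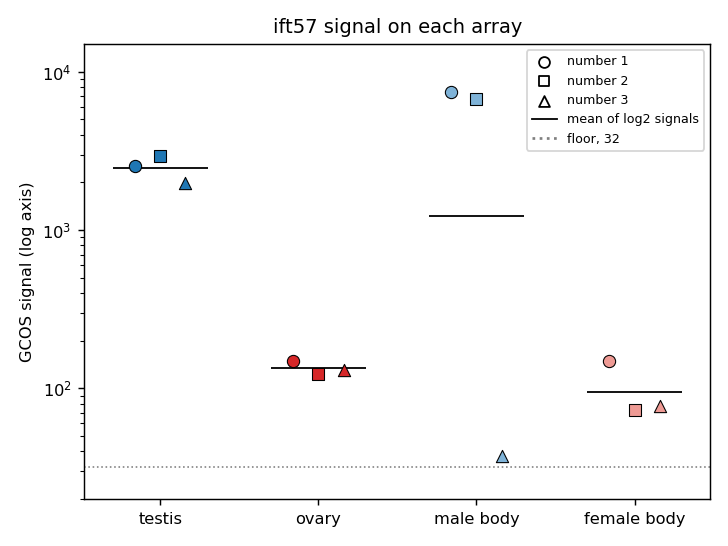
GCOS signal of ift57 (log axis) on each of the 12 arrays, by group, with the array number as the symbol, the mean of the log2 signals as a bar and the floor of 32 as a dotted line. The 3 testis arrays lie between 1974.4 and 2920.3, male body 1 and 2 at 7500.5 and 6687.6, and male body 3 at 37.1, below all ovary and female body arrays.

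A group mean summarised the male body poorly. It was 4742 ± 4095 in male body and 99.8 ± 43.0 in female body (SD, n = 3 each), with a log2 difference of 3.70 and an SE of 2.55. The log2 ratio of the arithmetic means was 5.57. Without male body 3 the log2 difference was 6.23 (SE 0.34), and it was 2.40 without male body 1 and 2.48 without male body 2. The size of the male-female difference in the body was thus set by which male was included.

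The 4 groups ranked male body, testis, ovary and female body by their mean signals, but neighbours in this order were not all apart. The male body arrays lay on both sides of the testis arrays. Ovary and female body overlapped (log2 difference 0.51, SE 0.34), as female body 1 at 149.4 was level with ovary 1 at 149.2. Between testis and ovary there was a clear gap.

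The gonad-body contrast in males had no stable direction. Testis minus male body gave a difference of mean log2 signals of 0.99 (SE 2.53) over all arrays and -1.53 (SE 0.19) without male body 3. The log2 ratio of the arithmetic means, by which the groups were ranked, was -0.93 over all arrays, so the kinds of mean disagreed too. Within each sex, gonad and body arrays of the same number had correlated deviations from their group means across the array. The correlations were 0.30 to 0.31 in males and 0.24 to 0.29 in females, against -0.20 to -0.04 for different numbers. Male and female body arrays of the same number, from different fish, correlated at 0.05 to 0.16, and those of different numbers at -0.12 to 0.05. Testis and ovary arrays of the same number correlated at -0.05 to 0.04. The labels do not say that equal numbers are 1 fish, and this was not tested beyond these correlations. Taken by number, the testis signal was 0.34 times the body signal for number 1 and 0.44 times for number 2. For number 3 it was 53.2 times, an imprecise ratio against a body signal near the floor. For the females, the ovary signal was 0.999, 1.69 and 1.71 times the body signal for numbers 1, 2 and 3. The low signal of number 3 was found in the body and not in the testis, whose number 3 array had 1974.4.

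Testis germ cell markers had low signals in male body, with the sums given above. The synaptonemal complex gene *sycp3*, a marker of meiotic germ cells, had signals of 7090.0, 4958.4 and 7621.6 in testis against 7.1, 23.2 and 23.3 in male body. For *hormad1*, a meiotic chromosome axis gene, the signals were 8141.7, 7056.3 and 8974.2 in testis against 39.3, 26.1 and 3.9 in male body. Both genes were thus near or under the floor in male body. Others of the list were low but above the floor on all male body arrays, namely *dazl* (83.4, 77.3 and 51.5), *tdrd7a* (69.1, 62.9 and 90.4) and *syce2* (55.4, 47.0 and 51.8). In male body 1 and 2 the *ift57* signal was at least 2.29 times its highest testis signal. The part of testis RNA in the male body signals of *ift57* was not tested.

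The spread of *ift57* among the male bodies was among the widest on the array. Its log2 range over the 3 male body arrays was 7.66, which ranked 4 of 15502 probe sets, where the median range was 0.48 and 99% of probe sets were within 2.33. The range was 0.56 in testis, 0.27 in ovary and 1.03 in female body, with ranks of 5768, 8034 and 3832. None of the 8 other ift genes had a range above 1.11 in male body. Their signals there were far below those of *ift57* on male body 1 and 2, which left less room to fall.

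Few other probe sets separated male body 3 from the others to a like extent. On 4 probe sets male body 3 was at least 16-fold below both other male body arrays, and on 0 at least 16-fold above both. Male body 1 was at least as far below on 4 and above on 2, and male body 2 below on 5 and above on 4, so number 3 had no more such probe sets than its neighbours. The 4 of male body 3 were *ift57*, *copb2*, *hpxb* and a probe set with no gene symbol listed. For *hpxb*, which encodes the plasma heme-binding protein hemopexin, male body had 4931.0, 4157.3 and 115.1 and female body had 1633.1, 768.2 and 49.3, so that number 3 was the lowest in both sexes.

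The unnamed probe set was low on number 3 in every group. Its signals were 129.0, 1481.1 and 34.6 in testis and 3901.7, 9839.7 and 31.3 in male body. In ovary they were 11373.5, 12532.5 and 15.9, and in female body 10420.9, 8998.4 and 27.8. It shared the low signal on male body 3 with *ift57*, but *ift57* had no such drop on testis 3 or on the number 3 female arrays.

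**Figure D2:**
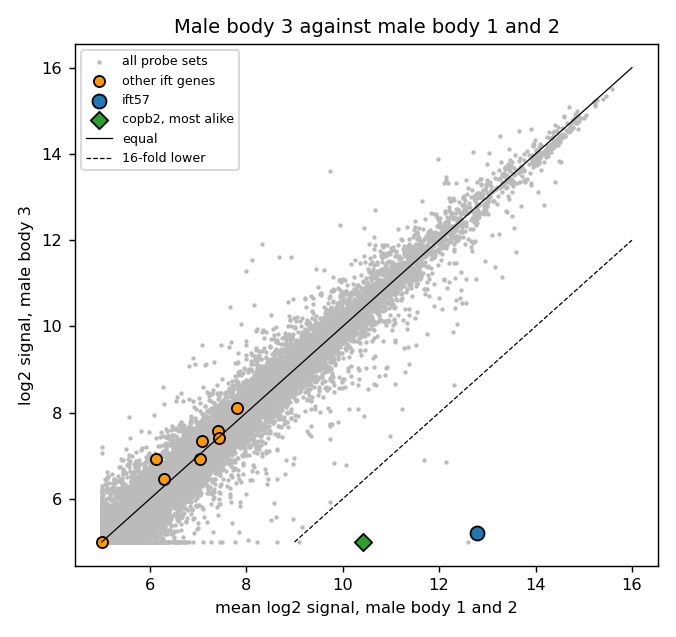
Log2 signal on male body 3 against the mean log2 signal of male body 1 and 2 for 15502 probe sets (grey), with ift57, copb2 and the 8 other ift genes marked, a line of equal signals and a dashed line 16-fold below it. Probe sets follow the line of equality, as do the other ift genes, and ift57 lies far below it.

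No list of genes fell on male body 3 to the extent that *ift57* did, but none was high enough to do so. Photoreceptors had the highest list medians on male body 1 and 2, at log2 10.6 and 10.96, against 12.87 and 12.71 for *ift57*. The medians were 6.92 and 7.15 for the other ift genes. They were 5.39 and 5.0 for testis germ cells, where the floor is 5.0. For the members of each list, the median log2 difference was taken as male body 3 minus the mean of male body 1 and 2. It was 0.16 for the other ift genes, 0.00 for the transport motors, 0.13 for the BBSome and -0.17 for the cilium transcription factors. It was 0.15 for the sperm flagellum, 0.00 for testis germ cells, 0.51 for the testis soma, -0.15 for photoreceptors, -0.16 for brain and nerve, -0.25 for egg and oocyte and -0.21 for estrogen-responsive liver genes. The IFT-B gene *cluap1*, with 9.5, 34.1 and 5.6 in male body, was near or under the floor on all 3.

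The other ift genes were set against *ift57* in the comparison of testis with ovary. All 8 were higher in the testis by limma at an adjusted p under 0.05, where 42.5% of the 13965 probe sets tested were higher and 24.4% lower. Their median log2 difference was 3.40 (2.45 to 5.17), against 0.36 for all probe sets tested. The description of *ift57*, at 4.19, fell inside this range. Markers of the sperm flagellum moved with these genes (37105 to 43641 in testis and 240 to 272 in ovary, summed over 6 genes, 3 of them at the floor on all ovary arrays), and their part in the ift values was not tested.

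Among the peripheral IFT-B genes, *ift80* had signals of 1563.6, 1444.2 and 1134.7 in testis against 108.6, 95.9 and 139.4 in ovary (log2 3.60, SE 0.22, limma adjusted p = 1.4e-05). Signals of *ift172* were 2023.8, 2132.9 and 1901.5 in testis against 206.4, 190.0 and 177.3 in ovary (log2 3.40, SE 0.14, limma adjusted p = 2.9e-06). The groups were apart for both, as they were for *ift57*. Their partner *cluap1* was also higher in the testis (337.4, 298.0 and 277.2 in testis, against 52.9, 62.8 and 23.5 in ovary, log2 2.68, SE 0.29).

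In the core of IFT-B, *ift46* had the largest difference of the 8, with signals of 4802.5, 5187.5 and 4431.0 in testis against 123.6, 142.0 and 135.8 in ovary (log2 5.17, SE 0.13, limma adjusted p = 5.6e-07). The smallest was that of *ift56*, with 5623.5, 5317.8 and 6010.7 in testis against 1280.8, 937.3 and 911.9 in ovary (log2 2.45, SE 0.15, limma adjusted p = 1.7e-05). Differences of 3.01 and 3.60 were found for *ift52* and *ift88*. For *ift81*, whose product binds tubulin together with IFT74, the ovary and both bodies were at the floor on all arrays, and the testis was at least 7.96-fold higher. The IFT-A gene *ift122* was also higher in the testis (log2 3.41, SE 0.46).

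The body comparison of the other ift genes gave a different picture from the high signals of *ift57* in male body 1 and 2. Of the 7 that could be tested, 0 were higher and 0 lower in male body by limma, where 18.0% of 14941 probe sets were higher and 12.9% lower. The count was also 0 at an unadjusted limma p under 0.05 and 0 with the methods' 2-sample test. The share of all probe sets called in those ways was not counted, so both counts are no separate result. Their median log2 difference was 0.20 (-0.67 to 0.52), against 0.27 for all probe sets tested. Leaving out male body 3, or any other array, also gave 0 calls.

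In male body *ift80* had signals of 90.3, 68.6 and 87.8, against 80.8, 68.6 and 90.1 in female body (log2 0.04, SE 0.25). Signals of *ift172* were 109.1, 165.9 and 163.1 in male body against 170.5, 96.3 and 119.6 in female body (log2 0.20, SE 0.33). The sexes overlapped for both of these partners of *ift57*. The sexes did not overlap for 3 of the 8. All male body arrays were above all female body arrays for *ift46* and *ift52*, where 30.2% of probe sets were so ordered, and below them for *ift56*, where 18.6% were. These counts do not exceed the shares and are no result about the ift genes as a set. Signals of *ift46* were 168.2, 171.9 and 191.0 in male body against 107.2, 156.8 and 111.7 in female body (log2 0.52, SE 0.28, limma adjusted p = 0.18, and 0.049 in 1 fit of all 12 arrays).

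**Figure D3:**
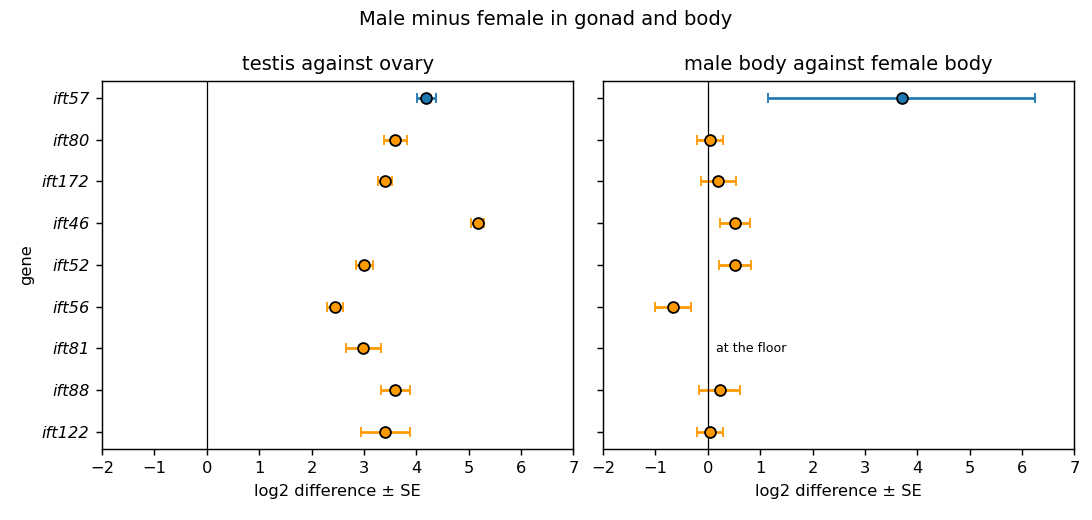
Log2 difference ± SE for the 9 ift genes, testis minus ovary (left) and male body minus female body (right), with ift57 in blue (SE from the spread of its own 6 arrays) and the others in orange (SE from limma). All 9 lie to the right of 0 in the gonads, and in the bodies only ift57 lies far from 0, at 3.70 with an SE of 2.55; ift81 was at the floor in both bodies.

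Some markers of other tissues also differed between the bodies. The egg and oocyte genes were lower in male body for 9 of 9 (12.9% of all probe sets), with the sums given above. With 18.0% of all probe sets higher, brain and nerve genes were higher in male body for 4 of 8. Their sums were 11148 to 14280 against 3410 to 6430 in the female bodies. Photoreceptor genes were higher for 3 of 10, and 7 were not called. Their log2 differences ran from -1.0 to 1.3, so this count is no result about the list. The photoreceptor sums were 15975 to 21040 against 5287 to 12647 in the female bodies. The part of these tissues in the *ift57* signals of male body 1 and 2 was not tested. Male body 3 had a photoreceptor sum of 0.886 and a brain sum of 0.893 times the mean of the other males.

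All 8 other ift genes were also higher in testis than in male body (29.2% of probe sets higher and 29.9% lower), with a median log2 difference of 3.77 (2.23 to 4.76), against -0.12 for all probe sets tested. Again all 8 were called without male body 3. By contrast *ift57* in male body 1 and 2 exceeded its testis level. Signals of *ift88*, whose loss in zebrafish leaves cilia short or absent, were 1290.4, 1005.7 and 1058.2 in testis against 84.9, 56.9 and 122.5 in male body. The difference was 3.73 on the log2 scale (SE 0.30, limma adjusted p = 3.8e-05).

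Between ovary and female body 1 of 7 other ift genes was higher and 1 lower, with 28.2% and 29.5% of probe sets called in those directions. The higher gene was *ift56*, with 1280.8, 937.3 and 911.9 in ovary against 614.7, 298.9 and 303.4 in female body (log2 1.43, SE 0.32, limma adjusted p = 0.0072). The lower gene was *ift122*, with 94.5, 5.9 and 59.4 in ovary against 133.8, 118.9 and 122.2 in female body (log2 -1.15, SE 0.40, limma adjusted p = 0.04). That call rested on few arrays, as it was lost when any 1 array other than ovary 1 was left out. With quantile normalization or median centring 6 of the other ift genes were higher in ovary and 0 lower. The median difference over all probe sets also rose, from -0.05 as deposited to 0.31 and 0.52. The share of all probe sets called under these scalings was not counted, so the 6 are no result about the ift genes.

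The sex difference was larger in the gonad than in the body for all 8 other ift genes, by limma on the 12 arrays, where 23.1% of 15071 probe sets were called in that direction and 12.6% in the other. The interaction ranged from 2.48 for *ift52* to 4.65 for *ift46* (log2), and all 8 were called without male body 3 as well. For *ift81* both bodies and the ovary were at the floor, so its sex difference in the body was not measured. No test of this kind was made for *ift57*. Its own descriptive differences were 4.19 in the gonad and 3.70 in the body, or 6.23 in the body without male body 3.

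**Figure D4:**
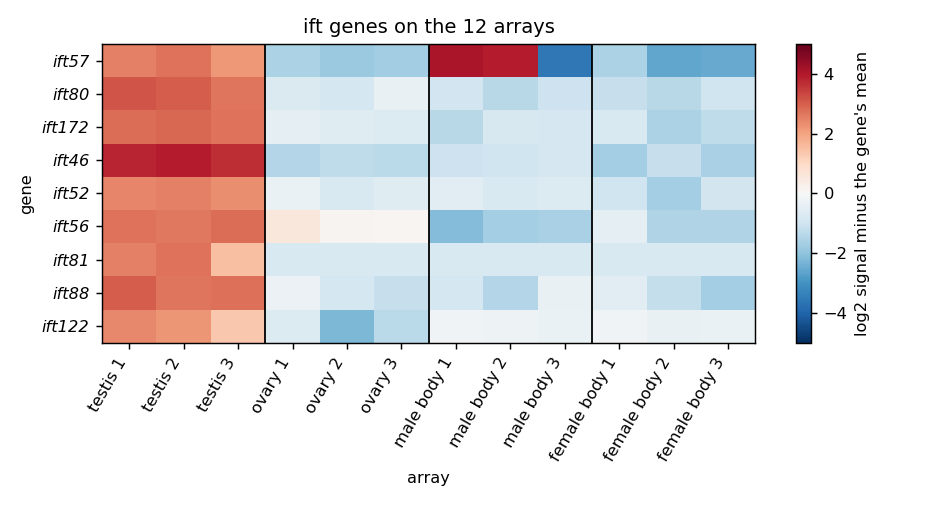
Log2 signal minus the gene's own mean over 12 arrays (colour), for ift57 and the 8 other ift genes (rows) on each array (columns, grouped as testis, ovary, male body and female body). Every gene is above its mean in testis, and ift57 is the only one above its mean on male body 1 and 2.

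The rest of the transport machinery was measured by 13 genes under other symbols, namely *cluap1*, *ttc21b*, 5 motor genes and 6 of the BBSome list. The BBSome is the coat that carries membrane proteins of the cilium along with intraflagellar transport. Its list also holds *arl6*, which is not a subunit of the coat. All 13 were higher in testis than in ovary (42.5% of all probe sets) and all 13 higher in testis than in male body (29.2%). In testis against ovary the median log2 difference was 1.83 for the motors and 1.79 for the BBSome list. In testis against male body it was 2.17 and 2.82. In male against female body 1 of the 12 tested was higher and 1 lower (18.0% and 12.9% of all probe sets). Neither count exceeds its share, so they are no result about these genes as a set. The higher gene was *kifap3a*, a kinesin-2 adaptor, with 218.4, 268.8 and 287.1 in male body against 146.5, 121.2 and 120.0 in female body (log2 0.99, SE 0.26, limma adjusted p = 0.027).

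The lower gene was *dync2i2*, an intermediate chain of cytoplasmic dynein 2, with 4.4, 4.3 and 5.8 in male body against 85.7, 53.5 and 42.5 in female body (limma adjusted p = 0.041). It was at the floor on all male body arrays, so its level in female body was at least 1.81-fold higher. The IFT-A gene *ttc21b* had a log2 difference of 0.66 (SE 0.28, adjusted p = 0.1) between male and female body. All 6 genes of the BBSome list were higher in testis than in ovary (0.89 to 2.68, the highest for *arl6*). Between male and female body 0 were called by limma (1 at an unadjusted p under 0.05, *bbs7*, log2 -0.80, SE 0.30). The share of all probe sets under that unadjusted threshold was not counted.

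Transcription factors of cilium formation were measured for 4 genes. The regulatory factor X genes *rfx2* (log2 1.37, SE 0.17) and *rfx1b* (1.16, SE 0.31) were higher in testis than in ovary, as was *myb* (2.88, SE 0.20), which in the mouse acts in the formation of multiciliated cells. The remaining gene, *rfx4*, was at the floor on all testis and ovary arrays and was not tested there. Of all probe sets, 42.5% were higher in testis than in ovary. Between male and female body 0 of the 4 were called by limma, where 18.0% of all probe sets were higher and 12.9% lower. The largest of those differences was that of *myb* (log2 1.19, SE 0.40, adjusted p = 0.057), which was also the 1 of 4 with an unadjusted p under 0.05. How many of all probe sets passed that unadjusted threshold was not counted.

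Sex order over all 12 arrays was a common pattern on this array, and *ift57* did not have it. On 1173 probe sets (7.57%) all 6 male arrays were above all 6 female arrays. For *ift57* the lowest male minus the highest female array was -2.01 on the log2 scale. Without male body 3 there were 1327 such probe sets (8.56%), *ift57* among them, with a gap of 3.72 between its lowest male and highest female array. A gap of at least 2-fold over all 12 arrays was found for 35 probe sets (0.226%). Of the other ift genes 1 was ordered by sex, *ift46*, with a gap of 0.10.

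The profile most like that of *ift57* was sought among the 8704 genes above the floor on at least 1 array by the root mean square difference of centred log2 signals over the 12 arrays, a measure in which the drop on male body 3 weighs heavily. This measure used the *ift57* signals themselves and is a description. The nearest gene was *copb2*, a subunit of the COPI vesicle coat, at 1.29, and then *ckba*, a brain-type creatine kinase, at 1.80. The other 8 of the first 10 lay at 1.84 to 1.96, and the median over all probe sets of these genes was 2.75. They were si:ch211-163b2.4, *echdc2*, *dmd* (dystrophin), LOC563780, *spring1*, *trappc3* (a vesicle tethering subunit), *rnf11a* and si:dkey-102g19.3. Male body 3 was the lowest of the male bodies for 10 of 10, and testis 3 the lowest of the testes for 9 of 10, which was also the case for *ift57*. Both counts follow largely from the choice by likeness on the same arrays. They are no separate result, and the share of all probe sets so ordered was not counted.

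On its nearest probe set *copb2* had signals of 1738.0, 1904.5 and 90.7 in testis and 1398.9, 1347.0 and 21.0 in male body. They were 74.4, 0.9 and 95.7 in ovary and 75.7, 4.6 and 131.9 in female body. Number 3 was therefore low in both male tissues for *copb2* but only in the body for *ift57*. A second probe set of *copb2* gave 1138.1, 1228.1 and 705.6 in testis against 872.9, 1074.6 and 964.3 in ovary. It gave 1034.4, 969.7 and 664.2 in male body against 812.4, 830.8 and 944.3 in female body, so number 3 was again the lowest male but the sexes overlapped. The last of its 3 probe sets gave 478.1, 503.0 and 235.4 in male body against 402.9, 433.1 and 493.0 in female body.

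The nearest probe set of *ckba* had 1451.0, 3347.3 and 180.9 in testis and 1001.1, 806.6 and 113.6 in male body. It had 93.6, 37.8 and 27.3 in ovary and 230.3, 400.3 and 70.9 in female body, with number 3 the lowest in each group. Its other probe set gave 3446.5, 1905.1 and 3323.8 in male body against 957.8, 1434.9 and 2422.4 in female body, with no drop on number 3. For *dmd* the nearest probe set had 122.5, 94.6 and 69.8 in male body. Another probe set of *dmd* gave 169.1, 216.1 and 170.1 there, with number 3 not the lowest. The size of the drop on male body 3 thus differed between probe sets of 1 gene. For *ift57* the array has only 1 probe set with that symbol alone, and whether another stretch of its transcript gives the same signals was not tested.

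**Figure D5:**
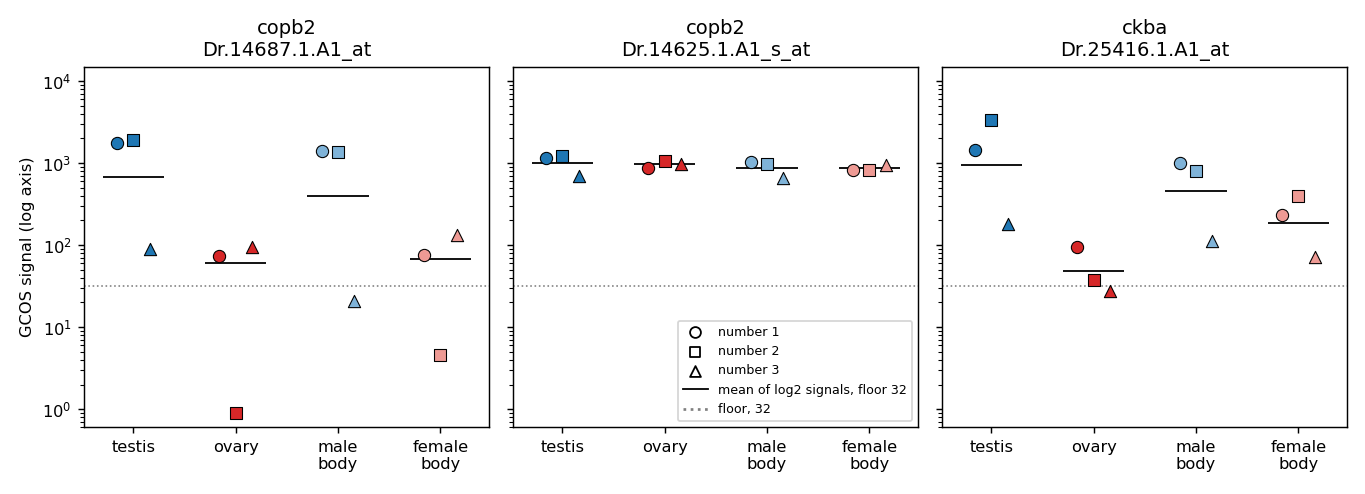
GCOS signal (log axis) on each array for the probe sets of copb2 and ckba that were most like ift57 (left and right) and for a second copb2 probe set (middle), with the array number as the symbol, the mean of log2 signals as a bar and the floor of 32 as a dotted line. Number 3 is the lowest testis and the lowest male body array in all panels, and male body and female body overlap in each.

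None of the other ift genes was among these 10. Their root mean square differences were 2.23 for *ift52* to 2.74 for *ift56*, all 8 under the median of the probe sets ranked. By probe set they ranked 299 to 5265. Each had its 3 highest arrays in the testis.

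In the RefSeq gene order of the zebrafish assembly GRCz12tu, *ift57* and *copb2* both lie on chromosome 2, with 63 annotated genes between them. The genes nearest to *ift57* that have a probe set are *slc39a6*, a zinc transporter gene, and *apom*, which encodes apolipoprotein M. Signals of *apom* were 5379.6, 4775.4 and 2826.2 in male body against 7348.1, 7154.0 and 4574.2 in female body, and those of *slc39a6* were 264.3, 332.1 and 311.1 in male body against 945.9, 718.0 and 549.6 in female body. Neither neighbour had the pattern of *ift57*. Among 58 probe sets of the 100 genes on either side, 3 (5.17%) had male body 3 at least 2-fold below both other male bodies, against 181 of 15502 (1.17%) on the whole array. The 3 were 2 probe sets of *copb2* and 1 of si:ch211-14a17.10 (82.9, 89.2 and 27.7 in male body). Since *copb2* was found by its likeness to *ift57*, drop on male body 3 included, its 2 probe sets were no independent count. This window was chosen after the values were seen and holds *copb2*, so its share was not tested against that of the array.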

How the data were processed

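Per the methods and the labels, the authors made the deposited intensity values with GCOS 1.2: a robust mean over perfect match minus mismatch probe pairs, on a linear scale, scaled so that the mean after trimming 2% at each end was equal on all 12 arrays. Other expression measures of the study were not used. The 115 controls among the 15617 probe sets were dropped. Signals under 32 were set to 32 and log2 transformed. Linear models were fitted with limma 3.58.1 (R 4.3.3), with an intensity trend in eBayes, to the 6 arrays of each pair of groups and, for the sex difference in gonad minus body, to all 12. Probe sets at the floor on all arrays of a fit were not tested. Two-sided p-values were adjusted over all probe sets tested (Benjamini-Hochberg), with a threshold of 0.05. Tables and plots were made with Python 3.11.15, pandas 2.3.3, NumPy 2.4.6 and matplotlib 3.10.9. The number of arrays limits the precision.

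Genes were named from the array annotation (10795 probe sets with 1 symbol, 135 with several, 4572 with none listed), and 82 of 82 named genes carried the same symbol in RefSeq. The genes named are *ift57*, every other ift symbol, list members that were called or bright, and the 10 profiles most like *ift57*. Other probe sets, neighbours and the array 3 counts were chosen after the values were seen. The gene, lists and tests were chosen with earlier results of these data known. Lists are IFT-B and IFT-A under other symbols, motors, BBSome, cilium transcription factors, and markers of testis germ cells, sperm flagellum, testis soma, egg, estrogen-responsive liver, photoreceptors, and brain and nerve.

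The labels number the replicates, and the design takes gonad and body from each fish. Deviations from the group means correlated at 0.30 to 0.31 for testis and male body of the same number and at 0.24 to 0.29 for ovary and female body. For different numbers the range was -0.20 to -0.04. These negative values follow in part from the positive ones, as deviations from a mean cancel within a group. Between the sexes the range was -0.05 to 0.16 for the same number and -0.12 to 0.05 for different numbers. In simulated data with 200 changed probe sets, the share recovered at a log2 change of 2 was 68% for testis-ovary, 65% for male-female body, 81% for testis-male body, 62% for ovary-female body and 56% for the interaction, and at a log2 change of 1 it was 39%, 11%, 23%, 15% and 9% in the same order. The changed probe sets were drawn only from brighter ones, so these shares do not cover genes near the floor. Alternatives were other floors, quantile normalization, median centring, a minimum mean of 200 and no trend. Others were 1 fit of all arrays, the replicate number as a block, the methods' 2-sample test and leaving out each array.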

Additional observations from a re-analysis of the deposited data

Results flagged for a closer look

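For each of the 8 other ift genes the sex difference was larger in the gonad than in the body, by the interaction test on 12 arrays with limma. The log2 difference of differences was 4.65 for *ift46*, 3.55 for *ift80*, 3.37 for *ift122*, 3.36 for *ift88*, 3.21 for *ift172*, 3.13 for *ift56*, 2.99 for *ift81* and 2.48 for *ift52*. All 8 adjusted p-values from limma were under the threshold (highest 0.00047, for *ift122*). The value of *ift81* depends on the floor, since it was at the floor outside the testis. It is not a bound, as the groups at the floor enter it with both signs.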

How the results depend on the processing

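Of 123 alternative values that keep all arrays, 109 stayed within the tolerance and 14 moved, and of 108 that leave out an array 7 moved. The tolerance was 1.5-fold for counts and 1 replicate SD for *ift57*, which with male body 3 came to 3.12 (male against female body) and 3.10 (testis against male body) on the log2 scale, so it passed values of those contrasts that differ in sign. The ratio of arithmetic means was 5.57 and -0.93 in these contrasts. The replicate block left all counts of other ift genes as they were (8 higher in testis against ovary and against male body, 1 higher and 1 lower in ovary against female body). Between the sexes and in the interaction this block joins arrays of different fish that share a number. It is therefore no check of the pairing of gonad and body there. Scaling shifted the ovary contrasts: with quantile normalization or median centring the median testis minus ovary over all probe sets was -0.04 or -0.15 (0.36 as deposited), *ift57* was at 3.77 or 3.39, and ovary minus female body was 1.25 or 1.21 for *ift57*. In ovary against female body 6 other ift genes were higher under either scaling and 2 (*ift52*, *ift56*) in 1 fit of all arrays, and 0 were lower with a floor of 16, either scaling, a mean of at least 200 or the methods' 2-sample test. In male against female body 1 (*ift46*, limma adjusted p = 0.049) was higher in 1 fit of all arrays. A gap of at least 2-fold left 35 of 1173 probe sets ordered by sex. The cause of these moves was not tested.

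Leaving out 1 array, other ift genes called in ovary against female body numbered 1 to 2 higher (2 without female body 1) and 0 to 1 lower. Probe sets ordered by sex numbered 1191 to 1903 (1903 without female body 3). The log2 difference of *ift57* was 2.40 to 6.23 in male against female body, -1.53 to 2.30 in testis against male body (negative without male body 3), and 0.33 to 0.84 in ovary against female body. In simulated data with 200 changed probe sets 9% to 39% of log2 changes of 1 were recovered. Far more probe sets were called in the real comparisons, which makes the adjusted threshold less strict. The changed probe sets were also drawn only from brighter ones. These shares therefore do not measure how many differences of that size were missed here, though some can be with 3 arrays a group.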

Other observations

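One gene of the flagellum list had a gonad-body order that the other members lacked. The adenylate kinase gene *ak1* had signals of 7540.3, 7039.0 and 6250.4 in testis against 19273.6, 15782.7 and 19280.8 in male body (log2 -1.38, SE 0.13, limma adjusted p = 0.0001). It was the 1 of 6 members that was lower in testis than in male body (29.9% of all probe sets were). Likewise *ift57* was higher in male body 1 and 2 than in testis. In ovary *ak1* had 8.2, 23.6 and 9.1, against 5678.0, 10479.3 and 12734.7 in female body. The signal of *ak1* was high in the bodies of both sexes, and male body 3 was level with male body 1.

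The steroidogenic gene *star*, of the testis soma list, was the 1 of 4 tested members that was higher in male than in female body. As 18.0% of all probe sets were higher there, this count is no result about the list. Its signals were 364.6, 892.7 and 858.1 in male body against 73.6, 265.1 and 56.7 in female body (log2 2.66, SE 0.62, limma adjusted p = 0.019).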
